A study of Homo sapiens with 4 samples.

Results

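The genes described here are 39 genes of the unfolded protein response and of the ATF4 stress program, among 60708 genes listed for 4 TT-seq libraries. They were chosen by function and by gene symbol, with earlier results of these libraries known. The ER branch has 20 genes, which encode the stress sensors, chaperones and degradation factors of the endoplasmic reticulum (ER) and the transcription factor XBP1. The ATF4 branch has 19 genes, which are ATF4 itself and genes it is known to control or to work with. All 39 symbols were found in the table, and 38 had enough counts to be tested. The exception was ASNS.

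HEK293 cells, derived from human embryonic kidney, carried a degron on their own RPB1. RPB1 is the largest subunit of RNA polymerase II, and its C-terminal domain (CTD) is a tail of repeated heptads. The degron lets auxin trigger destruction of the endogenous protein. Cells received a plasmid for RPB1 with either the 52× WT CTD or a 52× CTD with T4A, an alanine in place of threonine at position 4, in every repeat. After 48 h auxin was added to both groups for another 48 h, and new RNA was labeled with 4-thiouridine for 20 min. Each group had 2 libraries. Expression was thus transient, and no library of cells without a plasmid or without auxin was analysed here. TT-seq purifies and sequences fragments of labeled RNA, so a count mainly follows RNA synthesized within the labeling time, in introns as well as exons.

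The ER holds 3 sensors of unfolded protein. ERN1 (IRE1) splices XBP1 mRNA into the form that encodes an active transcription factor, ATF6 is cut in the Golgi to release one, and EIF2AK3 (PERK) phosphorylates the translation initiation factor eIF2. Spliced XBP1 and cut ATF6 switch on chaperones and the machinery of ER-associated degradation (ERAD), which moves misfolded proteins to the proteasome. Phosphorylated eIF2 slows translation in general but favors translation of ATF4 mRNA. ATF4 then activates genes of amino acid uptake and synthesis, redox control and stress feedback, and other eIF2 kinases reach it without ER stress. The activating steps of all 3 sensors and of ATF4 are splicing, cleavage, phosphorylation or translation, and none of these is read by a count of new RNA per gene.

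The 4 libraries held 33188536 to 45605027 counts. Log2 CPM, the log of counts scaled to library size, correlated at 0.991 between the WT libraries and at 0.979 between the T4A libraries. T4A replicate 1 stood somewhat apart, with a lowest correlation of 0.974 with a WT library against 0.988 for T4A replicate 2. POLR2A, the RPB1 gene, had 377312 and 384353 counts in WT and 251502 and 279478 in T4A. Endogenous and plasmid transcripts cannot be told apart there, and the degron acts on the protein, so POLR2A does not check the labels. Of 6 genes known to be on in HEK293 cells, 5 were tested, and the 6 summed to 159.9 and 164.7 normalized CPM in WT and to 134.4 and 154.4 in T4A. NEFM, a neurofilament gene of that list, had 0 to 6 counts. A list of 9 markers of other cells summed to 7.67 and 7.94 normalized CPM in WT and to 9.89 and 9.83 in T4A. HBB, the erythroid marker, had 0 to 2 counts, and the 5 of these markers that were tested had log2 fold changes (T4A over WT) of 0.13 to 1.13 with no adjusted p below 0.441.

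Promoters were examined first, since the factors that act in the branches are known to bind different DNA elements. The ER stress response element (ERSE) is CCAAT, then 9 bases, then CCACG, and is the site of ATF6 with NF-Y. ERSE-II is ATTGG, 1 base, then CCACG. The CARE element TTNCATCA is the composite site of ATF4 with a C/EBP partner. These were searched on both strands from 250 bases before to 50 bases after the RefSeq starts (GRCh38.p14) of 27305 genes. ERSE was found for 25 genes (0.0916%), ERSE-II for 19 genes (0.0696%) and CARE for 1217 genes (4.46%).

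Of the 20 ER branch genes, 10 (50%) held ERSE or ERSE-II, against 0.161% of all genes. ERSE lay at HSPA5, HSP90B1, PDIA6, CRELD2, XBP1, CALR and CANX, and ERSE-II at HERPUD1, SDF2L1 and HYOU1. None of the 16 ATF4 branch genes with a promoter window held either element. CARE was found for 5 of those 16 (31.2%), namely ATF3, CHAC1, ASNS, SLC3A2 and CEBPG, and for 1 ER branch gene, HERPUD1. The UPRE letters TGACGTGG, found for 253 genes (0.927%), occurred in the branches only at HYOU1, where they overlap 1 of its ERSE-II matches. PSPH, SHMT2 and SLC7A11 had no window in the table. The genes and the elements were both picked as known parts of these responses. High shares in the branches are thus partly built in by that choice and are no independent finding. A match of letters is a description of the window and does not show that a factor binds it.

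The ERSE family is shown for genes that the results below describe, each as 30 bases of the gene's own strand, 5′ to 3′, with the match in capitals. At CALR, SDF2L1 and HYOU1 the match lies on the other strand, so the capitals are its reverse complement.
HSPA5 ERSE, chr9:125241386-125241415, minus strand: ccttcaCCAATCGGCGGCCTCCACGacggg
HSP90B1 ERSE, chr12:103930210-103930239, plus strand: ccctgaCCAATCGGAAGGAGCCACGcttcg
XBP1 ERSE, chr22:28800598-28800627, minus strand: cgctggCCAATCGCGGAGGGCCACGaccgt
CALR ERSE, chr19:12938378-12938407, plus strand: cccacgCGTGGTCGACCATCATTGGtcggt
HERPUD1 ERSE-II, chr16:56932015-56932044, plus strand: ccggacgccgATTGGGCCACGttgggagag
SDF2L1 ERSE-II, chr22:21642104-21642133, plus strand: tcctcggaagCGTGGACCAATcaaaaccct
HYOU1 ERSE-II, chr11:119057265-119057294, minus strand: gggcctgggaCGTGGTCCAATgagtacgcg

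The CARE matches are shown in the same way for HERPUD1, the ER branch gene that holds both kinds of element, and for 4 ATF4 branch genes. The first bases of the matches lay 66 bases before the start at HSPA5, 52 at XBP1, 117 (ERSE-II) and 176 (CARE) at HERPUD1, 209 at CHAC1 and 42 at CEBPG. At ATF3, ASNS and CEBPG the match lies on the other strand, so the capitals are its reverse complement.
HERPUD1 CARE, chr16:56931955-56931984, plus strand: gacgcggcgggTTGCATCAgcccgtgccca
CHAC1 CARE, chr15:40953251-40953280, plus strand: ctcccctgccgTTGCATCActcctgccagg
ATF3 CARE, chr1:212565205-212565234, plus strand: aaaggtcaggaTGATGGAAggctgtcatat
CEBPG CARE, chr19:33374060-33374089, plus strand: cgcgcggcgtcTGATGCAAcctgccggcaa
ASNS CARE, chr7:97872458-97872487, minus strand: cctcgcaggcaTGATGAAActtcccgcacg

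**Figure D1:**
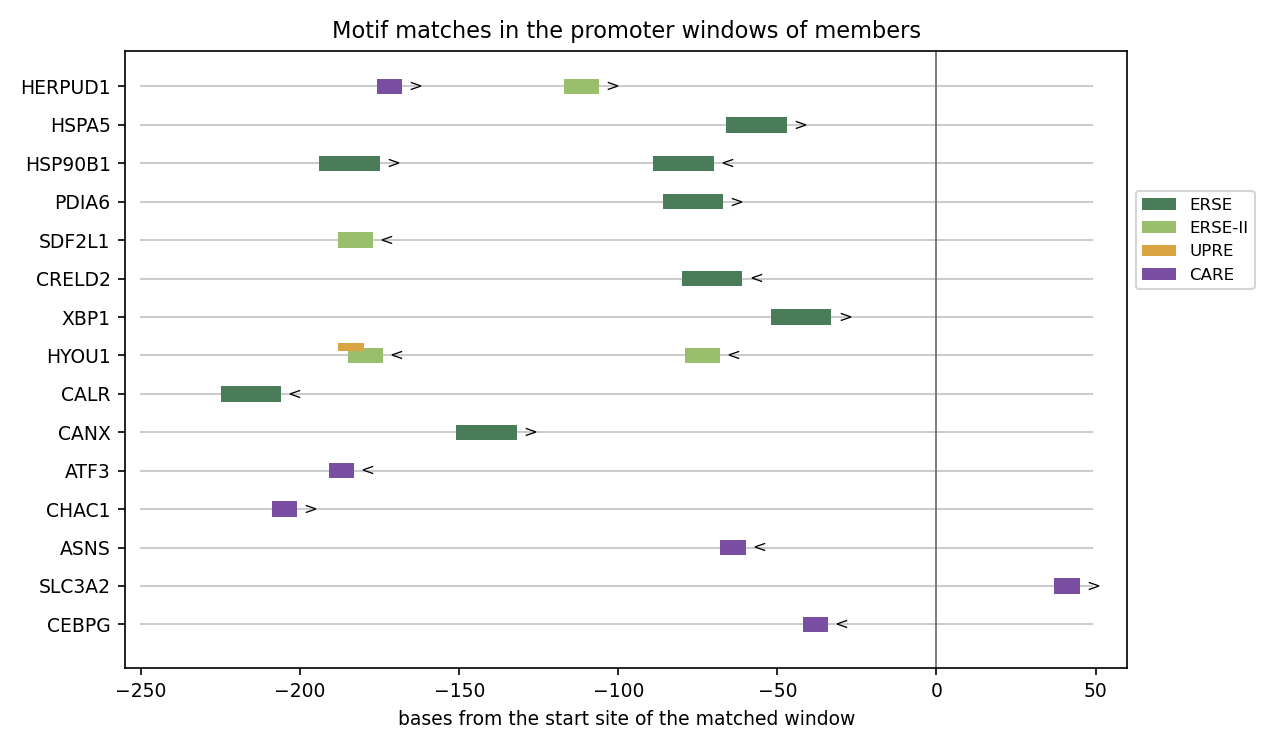
Position of each ERSE, ERSE-II, UPRE and CARE match (x axis, bases from the RefSeq gene start) in the promoter windows of the genes on the y axis; arrowheads give the strand of the match relative to the gene. The ERSE family lies in ER branch promoters, and CARE in 5 ATF4 branch promoters and at HERPUD1.

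Levels of new RNA differed widely among the genes. They are compared between genes as normalized CPM per kb of the gene's span, since introns were counted. The median of 17646 protein-coding genes with a count in a WT library was 0.449 per kb in WT. They include genes with too few counts to be tested, and the 38 do not, so the sets were not filtered alike. Of the 38 tested genes 37 lay above it, and VLDLR, a lipoprotein receptor, lay below at 0.309. The ER branch had a median of 2.27 and the ATF4 branch of 5.12. The short genes PPP1R15A, which encodes the phosphatase subunit that reverses eIF2 phosphorylation, at 39.6, and ATF4, at 38.7, led all 38. HSPA5 (BiP, the main ER chaperone) at 21.6, CALR (calreticulin) at 20.5 and HSP90B1 (GRP94) at 13.5 led the ER branch. Of the sensors, ATF6 was at 2.27, ERN1 at 1.36 and EIF2AK3 at 0.897, the lowest value of the ER branch.

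**Figure D2:**
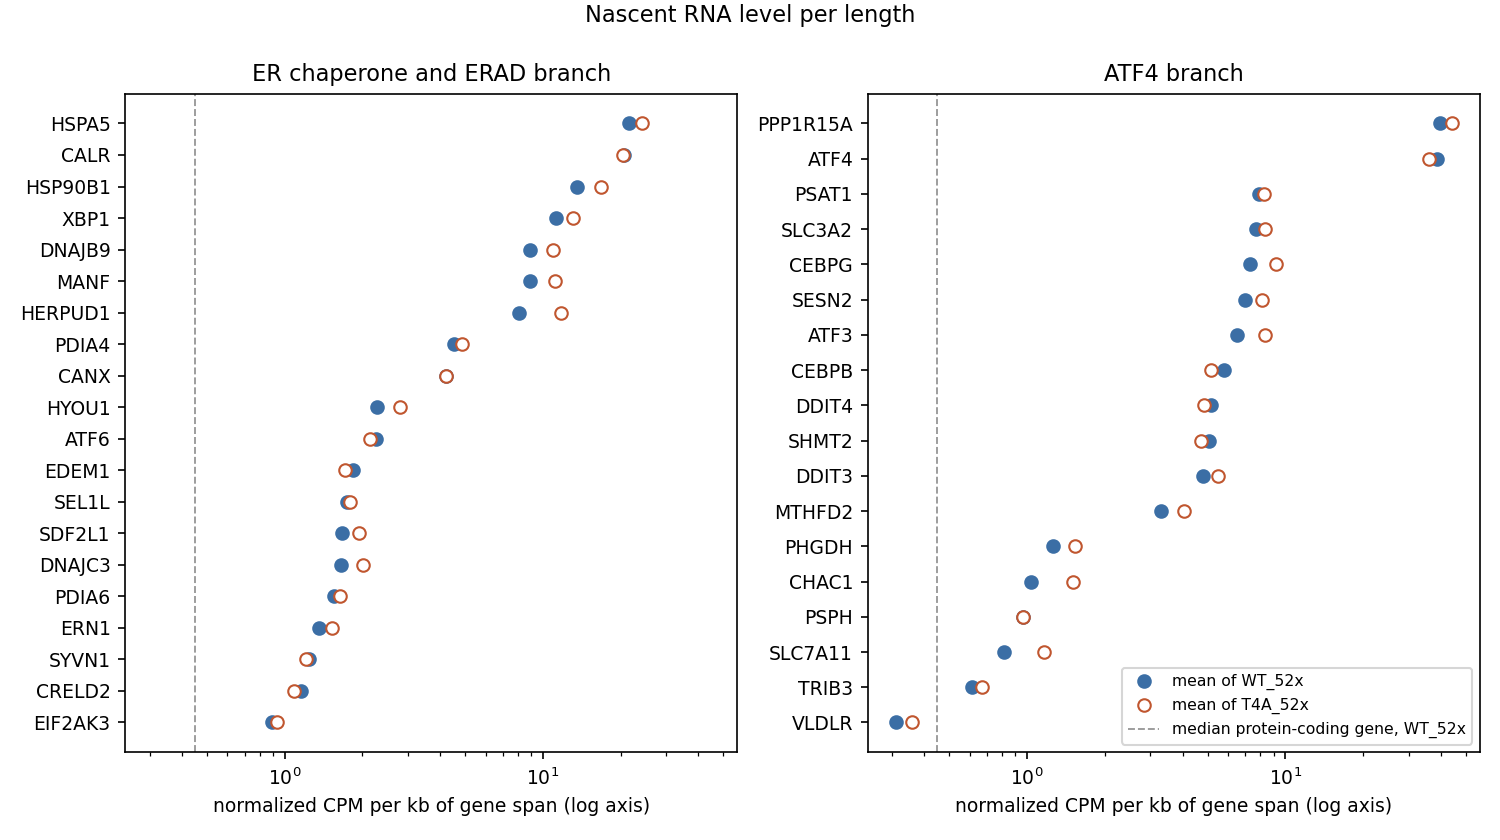
New RNA per kb of span (x axis, log scale, normalized CPM per kb) of each tested gene, as the mean of the 2 WT libraries (filled) and of the 2 T4A libraries (open); the dashed line is the median protein-coding gene in WT. PPP1R15A at 39.6 and ATF4 at 38.7 per kb lead, and VLDLR alone of the 38 lies under the line at 0.449 in WT.

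The comparison of interest was T4A against WT, at equal length of auxin treatment. Values per library below are given in the order WT replicate 1, WT replicate 2, T4A replicate 1, T4A replicate 2, as normalized CPM, which is the gene count per TMM-scaled library size. No gene of either branch passed the threshold of an edgeR quasi-likelihood adjusted p below 0.05 and a fold change above 1.5, which 0.00429% of all tested genes (1 of 23321) passed. At an unadjusted p below 0.05, 13 of the 38 were higher in T4A and 0 lower, where 7.45% of all tested genes were higher and 8.02% lower. DESeq2 also put 0 past the threshold, which 0.693% of all genes with a DESeq2 adjusted p passed. With no fold threshold, 7 of the 31 that it gave an adjusted p lay below 0.05, all higher in T4A. Of all genes with a DESeq2 adjusted p, 10.1% lay below 0.05. Dropping the fold threshold with DESeq2 was added after seeing the data. No source says that the 2 libraries of a group came from separate cultures, so p-values measure the spread between these libraries, which may be technical.

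Both T4A values lay above both WT values for 17 of the 38 genes (44.7%), where 24.8% of all tested genes did so. Both lay below for 1 gene (2.63%), EDEM1, where 24.7% of all tested genes did so. The groups overlapped for the other 20. For the genes with both T4A values above, the edgeR adjusted p ran from 0.160 to 0.417 in the ER branch. It ran from 0.150 to 0.6155 in the ATF4 branch. Because the genes were chosen with results of this comparison known, these counts and the p-values of single genes describe the libraries and support nothing beyond them. With T4A replicate 1 left out, 28 genes lay above WT and 3 below, where 38% and 36.7% of all tested genes did so. With T4A replicate 2 left out, 22 genes lay above WT and 10 below, where 41.1% and 39.8% of all tested genes did so. With WT replicate 1 left out, 18 lay above and 6 below, against 37% and 34.5%. With WT replicate 2 left out, 25 lay above and 1 below, against 34.4% and 37.4%. With a library fewer, separation is easier to reach.

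**Figure D3:**
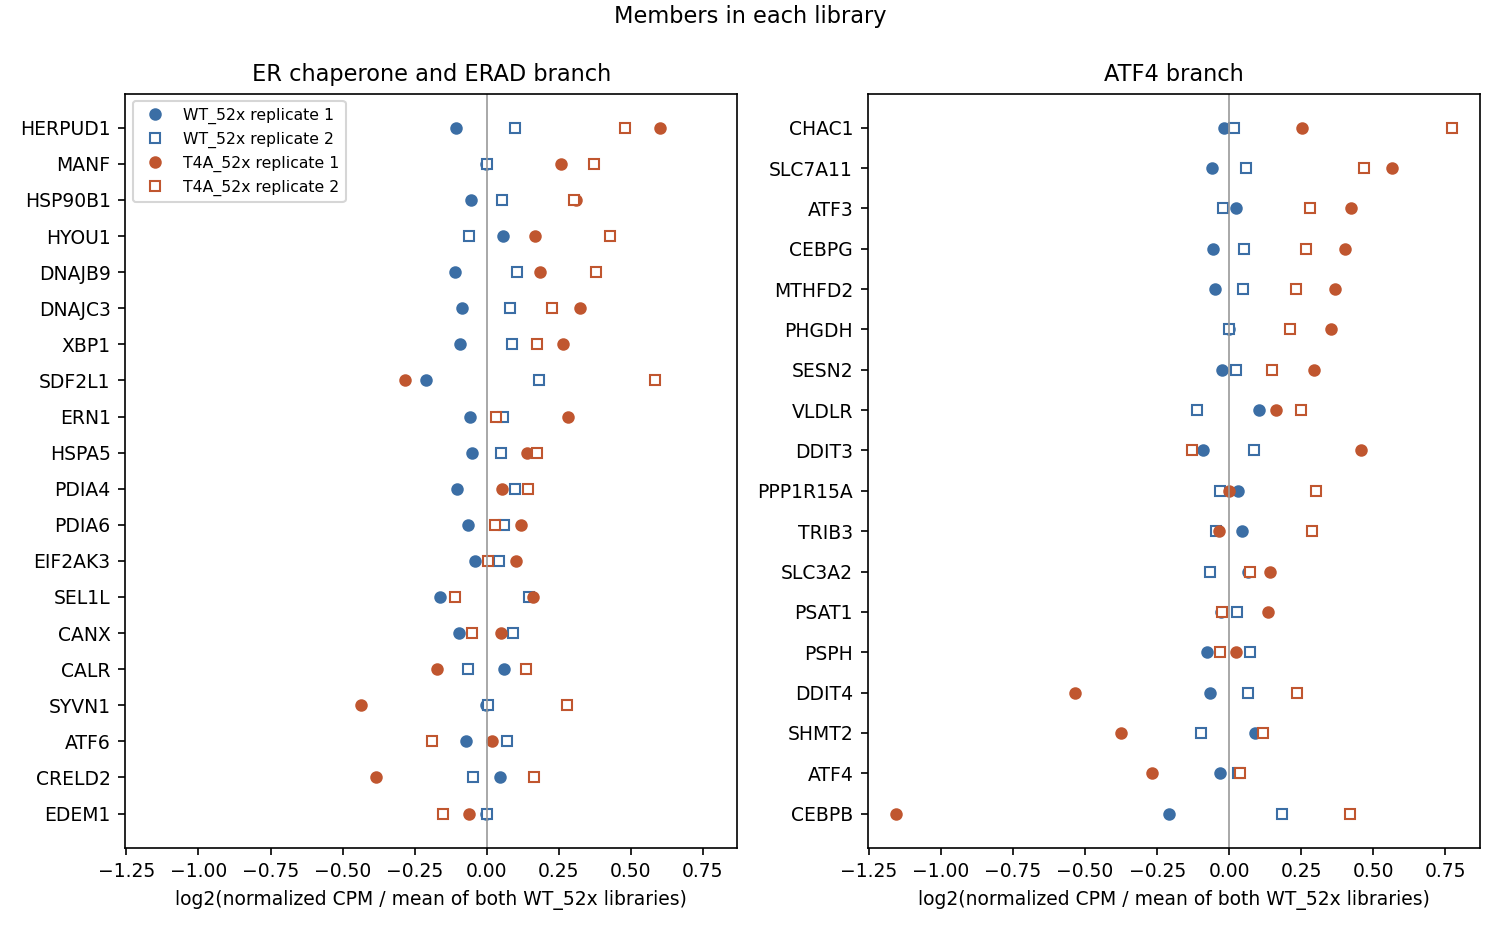
Log2 of normalized CPM over the mean of both WT libraries (x axis) for each tested gene (y axis, ordered by fitted fold change), with 1 symbol per library (filled circles replicate 1, open squares replicate 2). Points of both T4A libraries lie above both WT points for 17 of 38 genes, and CEBPB shows the widest gap between the T4A libraries.

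The 3 sensors did not separate the groups. ERN1 (chr17:64039080-64130819) was at 120.0, 130.0, 152 and 128, from 4698, 5731, 5101 and 4420 counts, with a log2 fold change (T4A over WT) of 0.16 ± 0.11 (SE; edgeR adjusted p = 0.480). EIF2AK3 (chr2:88556741-88691518) was at 117, 124, 129.6 and 121, from 4595, 5481, 4351 and 4193 counts (0.05 ± 0.09, edgeR adjusted p = 0.792). For both sensors T4A replicate 1 lay above the WT libraries and T4A replicate 2 between them. ATF6 (chr1:161766298-161977574) had the highest counts of the ER branch, 17837, 22146, 16300 and 14512, which are 456, 502, 486 and 419.7 normalized CPM (-0.08 ± 0.12, edgeR adjusted p = 0.762). Its T4A replicate 1 lay between the WT libraries and its T4A replicate 2 below both. These values moved with single libraries. The log2 fold change of ERN1 was 0.04 when T4A replicate 1 was left out, 0.09 when WT replicate 1 was, and 0.27 when T4A replicate 2 was. That of EIF2AK3 was 0.01, 0.00 and 0.09 in the same order, and that of ATF6 was -0.18, -0.16 and 0.00. Leaving out WT replicate 2 gave -0.03 for ATF6.

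XBP1 (chr22:28794555-28800597), the factor downstream of ERN1, was at 63.5, 72.1, 81.4 and 76.5, from 2486, 3177, 2731 and 2645 counts. Both T4A values lay above WT, by 0.22 ± 0.10 on the log2 scale (edgeR adjusted p = 0.330). This was 0.12 with WT replicate 1 left out. Counts per gene do not separate spliced from unspliced XBP1 RNA.

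Among ER chaperones, 3 of 5 separated the groups upwards, where 24.8% of all tested genes did so. The median log2 fold change of the 5 was 0.16. HSPA5 (chr9:125234853-125241382) was at 136, 146, 155 and 159, from 5335, 6442, 5218 and 5505 counts (0.16 ± 0.09, edgeR adjusted p = 0.417). All 4 of its values lay close together, with T4A just above WT, and its log2 fold change was 0.09 with WT replicate 1 left out. HSP90B1 (chr12:103930107-103953931) was at 310.1, 335, 399 and 398, from 12136, 14752, 13407 and 13764 counts (0.31 ± 0.10, edgeR adjusted p = 0.250). Its T4A libraries differed from each other far less than its WT libraries did. HYOU1, a nucleotide exchange factor for HSPA5, was the other separated chaperone at 30.8, 28.4, 33.2 and 39.8. The lectin chaperones CALR and CANX (calnexin), which hold glycoproteins during folding, overlapped, with log2 fold changes of -0.01 and -0.00. A pseudogene row of the same strand covers 29.7% of the CANX span.

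The co-chaperones DNAJB9 and DNAJC3, J-domain partners of HSPA5, both separated upwards, as did 24.8% of all tested genes. Their log2 fold changes were 0.28 each. DNAJB9 was at 41.3, 47.9, 50.7 and 58.0. DNAJC3 was at 184, 206, 244 and 229. SDF2L1, a small partner of these proteins, rested on 113, 167, 92 and 173 counts and overlapped. The disulfide isomerases PDIA4 and PDIA6 overlapped as well, at 0.10 and 0.07.

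Of the secreted or ER-resident stress proteins, MANF separated and CRELD2 did not. MANF (chr3:51385291-51389397) was at 36.7, 36.8, 43.9 and 47.5, from 1435, 1620, 1473 and 1642 counts (0.32 ± 0.10, edgeR adjusted p = 0.243). CRELD2 (chr22:49918167-49927540) was at 11.1, 10.5, 8.28 and 12.1, from 436, 461, 278 and 418 counts (-0.08 ± 0.20, edgeR adjusted p = 0.856). The T4A libraries of CRELD2 enclosed the WT values, and its log2 fold change was 0.17 without T4A replicate 1 and -0.40 without T4A replicate 2.

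The 4 ERAD genes differed among themselves. HERPUD1, a scaffold of the degradation complex, had the highest log2 fold change of both branches. It lies at chr16:56932142-56944864 and had 3745, 4867, 5243 and 4967 counts, or 95.7, 110.4, 156 and 144 normalized CPM. The WT mean was 103 ± 10.4 and the T4A mean 149.9 ± 8.86 (SD, n = 2). This is a log2 fold change of 0.54 ± 0.10, or 1.45-fold (edgeR adjusted p = 0.160, range over the alternatives 2.33e-05 to 0.584). Its T4A values stood well above both WT values, yet its fold change lay under the 1.5-fold threshold. Rows of the same strand cover 11.4% of its span.

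EDEM1 (chr3:5187646-5219958), a mannosidase-like factor that hands glycoproteins to ERAD, was the gene with both T4A values below WT. It was at 59.3, 59.3, 56.9 and 53.4, from 2320, 2616, 1910 and 1845 counts (-0.11 ± 0.09, edgeR adjusted p = 0.594). SEL1L and SYVN1, the adaptor and ubiquitin ligase at the core of the ERAD complex, overlapped, with log2 fold changes of 0.03 and -0.04. For SYVN1 the T4A libraries were at 11.7 and 19.1, on either side of the WT value of 15.8 in each library.

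In the ATF4 branch, ATF4 itself (chr22:39519695-39522683) was at 113, 118, 96.2 and 119, from 4433, 5211, 3229 and 4106 counts (-0.11 ± 0.11, edgeR adjusted p = 0.663). The lowest value was that of T4A replicate 1, and T4A replicate 2 was at the level of WT replicate 2. Its log2 fold change was 0.04 without T4A replicate 1 and -0.28 without T4A replicate 2. The groups thus overlapped for ATF4. Both T4A values lay above both WT values for 9 of the 18 tested genes of its branch (50%), where 24.8% of all tested genes did so.

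The other transcription factors of the branch were split. ATF3 (chr1:212565334-212620777), a stress-induced repressor and activator, was at 367, 356, 484 and 439, from 14377, 15695, 16259 and 15171 counts (0.35 ± 0.11, edgeR adjusted p = 0.238). CEBPG (chr19:33373685-33382686), a dimer partner of ATF4, was at 63.0, 67.9, 86.4 and 78.7, from 2466, 2992, 2899 and 2722 counts (0.33 ± 0.09, edgeR adjusted p = 0.224). Both had every T4A value above every WT value, and both hold a CARE match.

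DDIT3 (CHOP, a factor of prolonged stress) and CEBPB did not separate. DDIT3 (chr12:57516588-57521737) was at 23.2, 26.2, 33.9 and 22.6, from 908, 1155, 1139 and 780 counts (0.19 ± 0.18, edgeR adjusted p = 0.631). A gene row of the same strand covers 53.8% of its span, so its counts may stand for a part of the gene. Its log2 fold change was -0.12 without T4A replicate 1 and 0.44 without T4A replicate 2. CEBPB (chr20:50190830-50192668) was at 9.20, 12.1, 4.77 and 14.2, from 360, 532, 160 and 491 counts (-0.16 ± 0.41, edgeR adjusted p = 0.863). The T4A libraries held the lowest and the highest value of this intronless gene. With T4A replicate 1 left out its log2 fold change was 0.42, and with WT replicate 2 left out it was 0.04. With T4A replicate 2 left out it was -1.17 (edgeR adjusted p = 6.81e-07), past the threshold, as were 9.96% of all genes in that fit.

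The transporters SLC7A11 and SLC3A2, which together form the cystine/glutamate exchanger, both separated upwards, as did 24.8% of all tested genes. SLC7A11 (chr4:138164097-138242349) was at 60.9, 66.0, 93.9 and 87.6, from 2382, 2911, 3153 and 3030 counts. Its WT mean was 63.4 ± 3.66 and its T4A mean 90.8 ± 4.45 (SD, n = 2), a log2 fold change of 0.52 ± 0.09, or 1.43-fold (edgeR adjusted p = 0.150, range over the alternatives 0.000164 to 0.584). This was the lowest adjusted p of the 38 genes. SLC3A2 was at 265, 242, 279.7 and 266, with a log2 fold change of 0.11, and WT replicate 1 nearly touched T4A replicate 2.

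Of 6 enzymes of amino acid and one-carbon metabolism, 5 were tested. PHGDH and MTHFD2 separated upwards, where 24.8% of all tested genes did so. PHGDH, the entry enzyme of serine synthesis, was at 120.4, 120.3, 154 and 139 (log2 fold change 0.28). MTHFD2, a mitochondrial folate enzyme, was at 99.7, 107, 133 and 121 (0.30). The later serine enzymes PSAT1 and PSPH overlapped, with log2 fold changes of 0.06 and -0.00. SHMT2 (chr12:57229573-57234935), which converts serine to glycine in mitochondria, was at 29.0, 25.4, 21.0 and 29.5, from 1134, 1121, 704 and 1021 counts (-0.11 ± 0.17, edgeR adjusted p = 0.780). Its log2 fold change was 0.13 without T4A replicate 1 and -0.39 without T4A replicate 2.

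ASNS (asparagine synthetase, chr7:97851677-97872542), a much used readout of ATF4, could not be read from these counts. It had 2, 0, 1 and 2 counts. A lncRNA row of the same strand covers 99.95% of its span and had 1100, 1162, 773 and 835 counts. Reads that fall in both genes appear not to have been assigned to ASNS, so its low counts do not give its level.

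Among the regulators, CHAC1, a glutathione-degrading enzyme, had the second highest log2 fold change of both branches. CHAC1 (chr15:40952962-40956512) was at 3.63, 3.72, 4.38 and 6.28, from 142, 164, 147 and 217 counts (0.54 ± 0.23, edgeR adjusted p = 0.323). Its T4A values stood above WT, but differed from each other by more than T4A replicate 1 did from WT. Without T4A replicate 1 its log2 fold change was 0.78 (edgeR adjusted p = 0.0339), past the threshold, as were 0.794% of all genes in that fit. With T4A replicate 2 left out it was 0.24 (edgeR adjusted p = 0.568). SESN2, which restrains mTORC1 in amino acid shortage, separated at 157, 163, 196 and 177. PPP1R15A, TRIB3 (a pseudokinase that dampens ATF4) and DDIT4 (an inhibitor of mTORC1) overlapped, with log2 fold changes of 0.16, 0.13 and -0.10. VLDLR, an ATF4-responsive receptor, separated at 12.9, 11.1, 13.5 and 14.3.

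**Figure D4:**
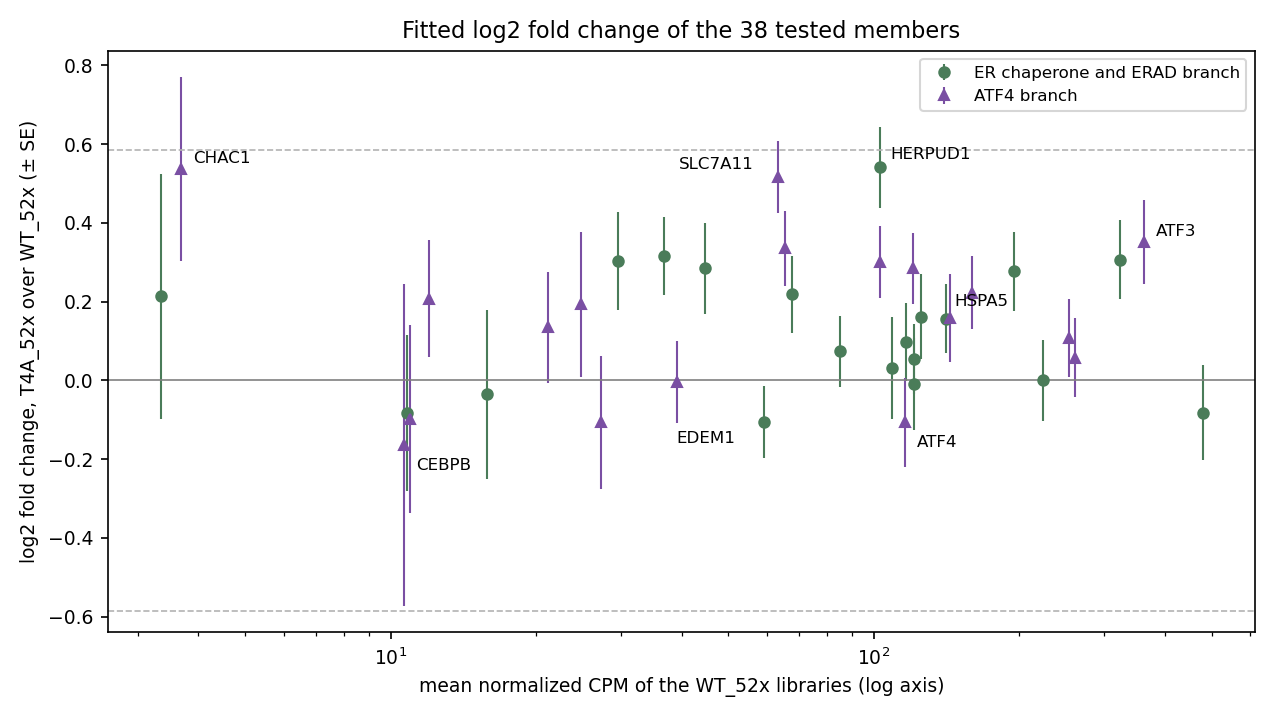
Log2 fold change, T4A over WT (y axis, ± SE, edgeR, n = 2 libraries per group), of each tested gene against its mean normalized CPM in WT (x axis, log scale), by branch; dashed lines mark a 1.5-fold change. Values run from -0.16 (CEBPB) to 0.54 (HERPUD1 and CHAC1), with 27 above 0 and 11 below.

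The branches were then set side by side. The ER branch had a median log2 fold change of 0.13, a range of -0.11 to 0.54, and 8 of 20 genes (40%) with both T4A libraries above WT. The ATF4 branch had a median of 0.18, a range of -0.16 to 0.54, and 9 of 18 (50%). The median of all tested genes was -0.00, and 24.8% of them had both T4A libraries above WT. With genes centered on their WT mean, the branch medians by library were -0.06, 0.06, 0.13 and 0.17 log2 units for the ER branch and -0.03, 0.03, 0.16 and 0.23 for the ATF4 branch. Both T4A libraries thus lay above both WT libraries in each branch. The summed markers of other cells were also higher in both T4A libraries, and those of HEK293 cells lower, and their part in the branch values was not tested. The ATF4 branch less the ER branch was 0.03, -0.03, 0.03 and 0.07, so the libraries overlapped in the difference between branches. No p is given for these scores over chosen genes, and 2 libraries against 2 could not fall below 0.333 in a two-sided exact permutation test. The ER median was 0.03 without WT replicate 1, and the ATF4 median was 0.10 without WT replicate 2. The difference between the fitted medians, 0.05, ran from -0.09 without WT replicate 2 to 0.14 without WT replicate 1.

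The fold changes were also read against the promoter elements. ER branch genes with ERSE or ERSE-II had a median log2 fold change of 0.18, and 5 of 10 separated upwards, while those without had 0.08, and 3 of 10 separated upwards. HERPUD1, HSPA5, HSP90B1, XBP1 and HYOU1 were the 5 with an element that separated, and PDIA6, SDF2L1, CRELD2, CALR and CANX were the 5 that did not. All 4 tested ATF4 branch genes with CARE separated upwards, with a median of 0.34. The match of SLC3A2 lay 37 bases after the start, and its log2 fold change of 0.11 was the lowest of the 4. PSPH, SHMT2 and SLC7A11, which had no window, were in neither group. Of 11 tested genes of that branch with a window but no CARE, 4 separated, with a median of 0.16. Of all tested genes, 24.8% had both T4A libraries above WT. The motif groups are small, and their values are descriptions with no test.

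The spread between the T4A libraries followed gene length. Of the 15 tested genes under 10 kb, 12 (80%) had a lower value in T4A replicate 1 than in T4A replicate 2, with a median log2 ratio (replicate 2 over replicate 1) of 0.30. Of the 23 longer genes, 5 were lower in T4A replicate 1, with a median ratio of -0.10. The same contrast was present over all tested genes, where 64.6% of 5708 short genes were lower in T4A replicate 1 and the medians were 0.18 and -0.09. Between the WT libraries the medians of the short and the long genes of the branches were alike, at 0.10 each.

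Across the 38 genes, length and the T4A ratio had a Spearman rho of -0.66, and length and the WT ratio one of -0.04. Across all tested genes they were -0.38 and 0.05. The genes all come from the same libraries, so these correlations are descriptions with no p. The short genes concerned include HSPA5, DNAJB9, MANF, CALR, ATF4, DDIT4, CHAC1, SHMT2, CEBPB and PPP1R15A, while XBP1, DDIT3 and CEBPG are short genes that were higher in T4A replicate 1. The 17 genes that separated upwards were 6 of the 15 tested genes under 10 kb and 11 of the 23 longer ones. Among all tested genes 24.8% did so, and the shares among all short and all long genes are not given here. The part of gene length in the T4A values was not tested.

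**Figure D5:**
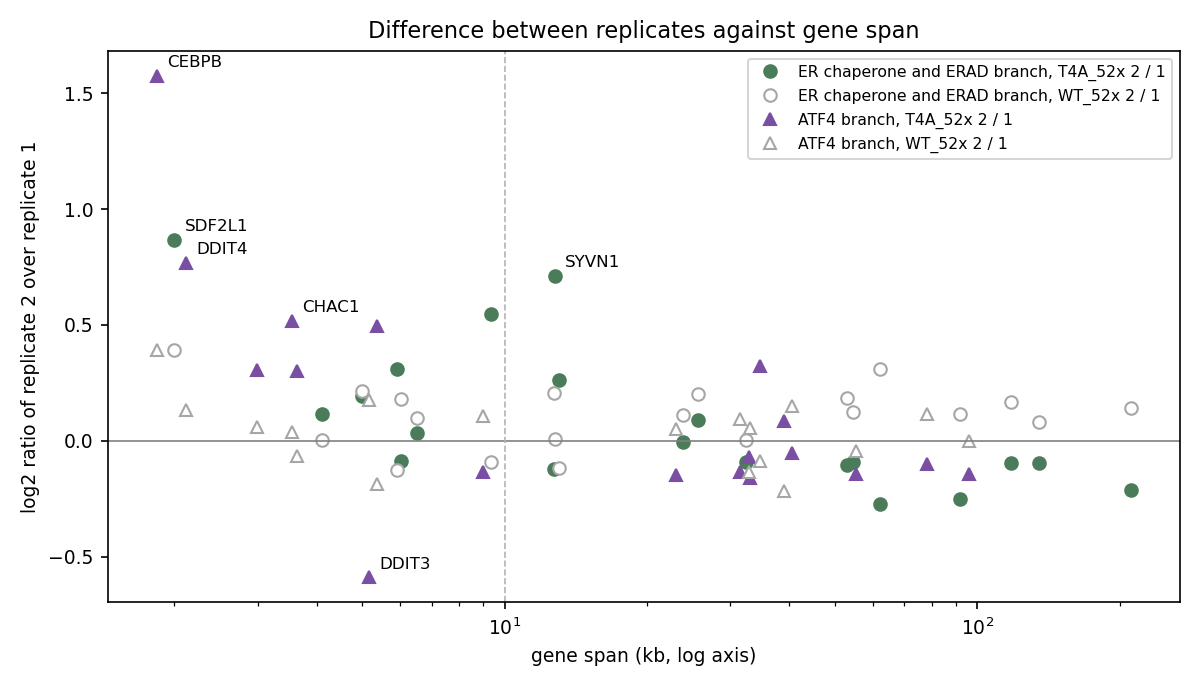
Log2 ratio of replicate 2 over replicate 1 (y axis) against gene span (x axis, kb, log scale) for the 38 tested genes, in T4A (filled) and in WT (open); the dashed line marks 10 kb. In T4A, of 15 genes under 10 kb, 12 lie above 0, led by CEBPB.

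Other genes of both pathways, listed by role, gave lower medians. The 65 further genes of the ER list were mostly of ER folding, translocation, transport, stress signaling and ERAD. Of these, 62 were tested, 0 passed the edgeR threshold, and the median log2 fold change was 0.02. Both T4A libraries lay above WT for 19 of them (30.6%) and below for 12 (19.4%), against 24.8% and 24.7% of all tested genes. At an unadjusted edgeR p below 0.05, 9 were higher and 4 lower, where 7.45% and 8.02% of all tested genes were. PDIA3, a disulfide isomerase, and ERO1B, the oxidase that recharges such enzymes, had the highest values at 0.36 each. SSR4 (-0.49) and DERL3 (-0.43) had the lowest. ERO1B and SERP1 were the only 2 of 54 of these genes with a promoter window that held ERSE or ERSE-II (3.70%). ERO1B had both T4A libraries above WT, and SERP1, with a log2 fold change of -0.27, had both below.

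Of 55 further genes of the eIF2 and ATF4 pathway, 49 were tested, 0 passed the edgeR threshold, and the median log2 fold change was -0.05. Both T4A libraries lay above WT for 14 (28.6%) and below for 19 (38.8%), against 24.8% and 24.7% of all tested genes. At an unadjusted edgeR p below 0.05, 2 were higher and 7 lower, where 7.45% and 8.02% of all tested genes were. CARE was found for 15 of 43 with a window (34.9%), beside 31.2% in the ATF4 branch. The 14 of these that were tested lay on both sides, with a median log2 fold change of 0.06 and a range of -0.25 to 0.32. Both T4A libraries lay above WT for 6 of them, among them JDP2, TARS1 and SLC1A4, and below for 4, which were AARS1 (-0.24), CARS1 (-0.22), MTHFD1L (-0.25) and MARS1 (-0.11). The 25 tested genes with a window but no CARE had a median of -0.05. CTH, which makes cysteine from cystathionine, had the highest log2 fold change, 0.51 (2465, 3169, 3517 and 3034 counts, edgeR adjusted p = 0.184), and JDP2 followed at 0.32. EIF2AK4 (GCN2), the eIF2 kinase that senses uncharged tRNA, had the lowest, -0.46 (2489, 2944, 1672 and 1550 counts, edgeR adjusted p = 0.173), and PYCR1, a proline synthesis enzyme, followed at -0.45. With TMM, the median of these 49 genes thus lay on the other side of 0 from that of the ATF4 branch. The median of all tested genes was 0.05 without TMM and 0.08 with upper quartile factors. The sign of the median of these 49 genes under those scalings was not examined.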

How the data were processed

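The authors deposited raw counts of 4 TT-seq libraries for 60708 Ensembl genes. The submitters' processing notes name cutadapt 4.6, STAR 2.7.11b, Picard, deepTools 3.5.6 and GRCh38; the counter's settings are not given in the sources used here. Gene length equals span for all 60708 genes, so introns were counted. Symbols were matched by stable identifier for 58702 genes. Counts were fitted with edgeR 4.0.16 (R 4.3.3; TMM, filterByExpr, quasi-likelihood, no block, Benjamini-Hochberg over 23321 genes), after a test on simulated data; DESeq2 1.42.0 was an alternative. Groups came from sample titles. Same-numbered libraries did not deviate together (correlation 0.00498), so numbers were not taken as pairs. Genes, lists, motifs and tests were chosen with earlier results of these data known. Values per library are given for the sensors, the transcription factors, HSPA5, ASNS and, in each branch, the 3 highest and 3 lowest log2 fold changes, and for the 2 highest and 2 lowest genes of each further list as fold changes; others were named as examples. Promoters are those of RefSeq (GRCh38.p14, 35116 windows); any window of a gene counted. Normalized CPM per kb uses the deposited span.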

Additional observations from a re-analysis of the deposited data

How the results depend on the processing

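The number of libraries, 2 per group, limits the precision of every value. The count of branch genes past the threshold stayed at 0 under other normalizations, filters, DESeq2 and the replicate block, and ran from 0 to 1 when a library was left out (CHAC1, higher, without T4A replicate 1; CEBPB, lower, without T4A replicate 2). Of all genes, 0.00429% to 0.00652% passed with the other normalizations, the stricter filter and protein-coding genes only. With no filter on low counts 0.166% passed, with DESeq2 0.693% (61 genes) and with the replicate block 1.86% (433 genes). With no fold threshold the count of branch genes in the main fit was 0 as well. Dropping the fold threshold together with another choice was added after seeing the data. The count was then 0 with the other normalizations, with the stricter filter and with protein-coding genes only, 7 with DESeq2 (of 892 genes, 10.1% of those given an adjusted p), 2 with no filter on low counts (0.382% of all genes), and 0 to 9 when a library was left out (3 without T4A replicate 1, where 1.36% of all genes were called, and 9, of which 7 higher, without T4A replicate 2, where 13.8% were). With the replicate number as a block it was 2, HERPUD1 and SLC7A11, of 533 genes (2.29%), and the block medians were 0.13 (ER) and 0.16 (ATF4). The ATF4 median was 0.23 without TMM and 0.25 with upper quartile factors. Upper quartile factors gave an ER median of 0.21 and 0 genes below WT, where 16.4% of all tested genes lay below. Scaling without TMM and by upper quartile factors moved the median of all genes by 0.05 and 0.08. Leaving out a library gave ER medians of 0.032 to 0.19, ATF4 medians of 0.10 to 0.24, differences of -0.089 to 0.14, 18 to 28 genes above and 1 to 10 below WT, and 0 to 2 and 0 to 3 genes past the threshold among the further ER and ATF4 pathway genes (the highest without T4A replicate 2, where 9.96% of all genes passed). Of all tested genes, 34.4% to 41.1% lay above and 34.5% to 39.8% below WT in the fits that left out a library. When a library was left out, log2 fold changes changed sign for CEBPB (-1.17 to 0.42, and 0.043 without WT replicate 2), ATF4 (-0.28 to 0.044), DDIT3 (-0.12 to 0.44), CRELD2 (-0.40 to 0.17), SHMT2 (-0.39 to 0.13) and ATF6 (-0.18 to 0.0045). For DDIT3 the lower end, and for CEBPB, ATF4, CRELD2 and SHMT2 the higher end, is the value without T4A replicate 1; for ATF6 the higher end is that without T4A replicate 2. The causes were not tested.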
